A study of Caenorhabditis elegans with 12 samples.

Results

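The genes described here are the nematode-specific peptide families nspa, nspb, nspc, nspd and nspe, 5 sets of short protein-coding genes of Caenorhabditis elegans. Membership was set by name, as every gene name made of nspa to nspe and a number, and the families were chosen with earlier results of these data known. There were 64 such rows among the 46711 that both count tables hold, and 57 of them had at least 1 count, against 18655 of all rows. The rows numbered 12 for nspa, 12 for nspb, 20 for nspc, 12 for nspd and 8 for nspe, of which 10, 12, 18, 10 and 7 had counts. Of the 7 rows at 0 in every library, 6 are annotated as pseudogenes (nspa-11, nspa-12, nspc-8, nspc-11, nspd-11 and nspd-12). The other is nspe-8, annotated as protein coding. A count of 0 allows a level of up to 0.357 CPM (counts per 1000000 counts of the library) in the shallowest library, taking 3 counts as the floor and counting error as the one source of error.

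The data are ribosome footprints, the stretches of mRNA of about 30 nt that a translating ribosome shields from nuclease, from whole worms at the middle of the fourth larval stage (L4), grown at 20 °C for 45 h after feeding. There were 4 strains with 3 replicates each, A to C. DG3913 carried lin-41(tn1541) and served as the control for VT3878, which carried let-7(ma432) with lin-41(tn1541ma480) and is labelled U13A, with effects downstream of lin-41 excluded. VT1367 carried the transgene maIs105 and served as the control for VT3797, which carried maIs105 with let-7(ma435) and is labelled U18A. The lin-41 allele thus differs within the U13A pair, maIs105 is present in both strains of the U18A pair, and no strain without any of these alleles was used here. Each genotype is represented by 1 strain, and the labels do not say whether replicates came from separate cultures, so the p-values measure the spread between these samples.

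Nematode-specific peptide genes are named for encoding small proteins that are recognised in nematodes and carry no well-known domain, and for most of them no function has been established. Members of nspd have been found in the proteome of C. elegans sperm. let-7 is a microRNA that represses lin-41 and other mRNAs at the passage from larva to adult, and hermaphrodites at the L4 stage make sperm before they switch to oocytes.

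The families differ in size and position. In the WBcel235 annotation all 10 counted nspa genes have 1 exon and encode 34 residues, and 9 of them lie on chromosome V between 14750353 and 14891186, with nspa-9 on chromosome X. The counted nspb genes have 2 exons and encode between 79 and 86 residues, and they lie in groups of 5 on chromosome IV (6590734 to 6599610) and of 4 on chromosome II (14578313 to 14588262), with nspb-6, nspb-11 and nspb-12 apart. All nspc genes lie on chromosome X in 3 clusters, and the counted ones have 2 exons and encode 101 to 103 residues. The counted nspd genes have 1 exon, encode 70 to 73 residues and are scattered over chromosomes I to IV. All 8 nspe genes lie within 16.9 kb of chromosome II, and the counted ones encode 71 to 74 residues.

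Several members cannot be told apart by their counts. nspa-1 and nspa-3 had equal counts in all 12 libraries, as did nspa-6 and nspa-7, and nspa-4 and nspa-5 were equal in 11 libraries. nspa-2 and nspa-8 differed by at most 0.896% in any library, and nspc-12 and nspc-15 by at most 0.423%. Of the 55 members with at least 100 counts over all libraries, 4 (7.27%) had the counts of another row exactly, against 21 of 13753 rows (0.153%) in the whole tables. How reads that match several places were counted is not given in the sources used here, so a read may have been counted for more than 1 copy. The 10 counted nspa rows therefore hold about 6 separate measurements, and a family sum may count a read more than 1 time. Some members also overlap another coding gene. irld-7, with 16 to 107 counts in a library, overlaps nspb-2 on the same strand and nspb-1 on the other, and these hold 52 to 191 and 54 to 186 counts, so reads of irld-7 and of these members may not be told apart. nspa-8 overlaps W06A7.4 on the other strand (17 to 83 counts), and nspc-15 overlaps F19H6.6 on the same strand (0 to 5 counts).

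Levels, given as CPM scaled by TMM (trimmed mean of M values) over the 12 libraries, differed strongly between and within families. Per kilobase of coding sequence, nspa-1 had a mean of 4049 CPM over all libraries and ranked 22 of 16372 genes, where the median gene had 4.58. nspd-3 followed with 1217 (rank 190), nspc-9 with 422.9 (rank 431), nspe-1 with 79.7 (rank 1598) and nspb-2 with 25.76 (rank 3654). These are the highest members of their families, and the lowest counted ones were nspa-9 at 138.2, nspc-18 at 177.7, nspb-11 at 4.862, nspe-4 at 0.8809 and nspd-8 at 0.8544 CPM per coding kilobase. nspc thus varied least between its members, and nspd and nspe most. The lowest nspd member, nspd-8, had at most 7 counts in any library. For coding sequences as short as those of nspa, which hold few footprints side by side, and for rows that may share reads, the level per length is a rough guide.

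**Figure D1:**
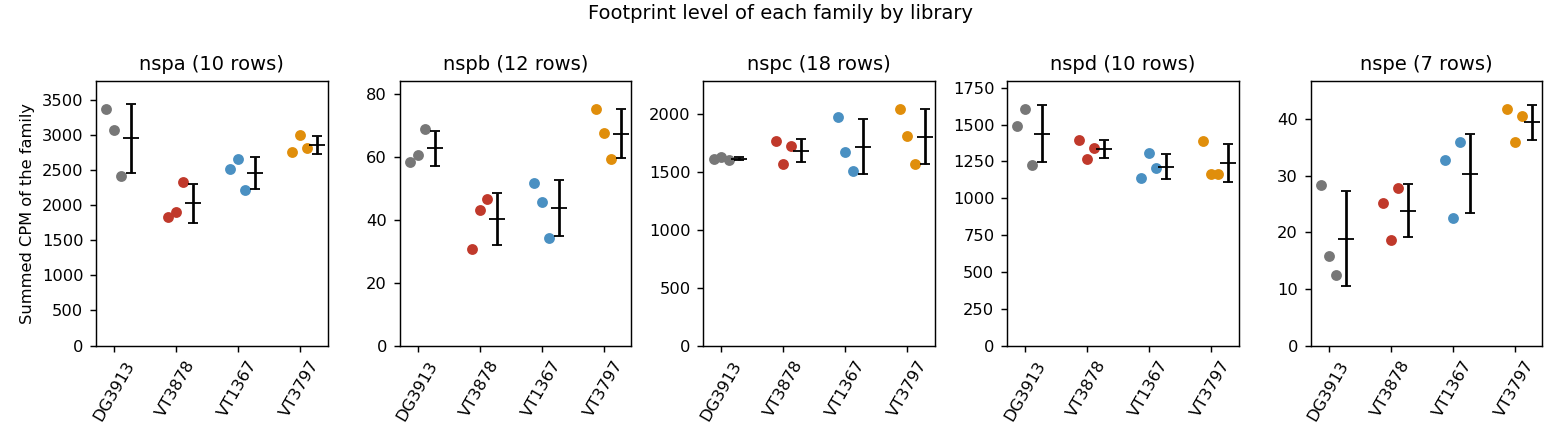
Summed footprint level of each family, in CPM, by strain. Each point is 1 library (replicates A to C from left to right), and the bar beside the points gives the mean ± SD (n = 3). The nspa and nspb points of VT3878 lie below those of DG3913 and the points of VT3797 lie above those of VT1367, whereas the nspc and nspd points overlap within each pair. The nspe points overlap between DG3913 and VT3878 and not between VT1367 and VT3797.

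Each let-7 strain was compared with its own control, and the changes of the 2 pairs were compared with each other. In VT3878 against DG3913, 52 members had enough counts to be tested, of which 1 rose and 6 fell by edgeR's quasi-likelihood test with a Benjamini-Hochberg adjusted p under 0.05. Of all 12874 genes tested in that pair, 5.64% were called, 3.07% higher and 2.57% lower. In VT3797 against VT1367, 10 of 55 members rose and 1 fell, where 10.9% of 13614 genes were called, 4.11% higher and 6.75% lower. The change differed between the pairs for 18 of 54 members, 17 of them with the lower value in the U13A pair. Of all 13597 genes tested for that difference 5.58% were called, 4.05% with the higher value and 1.53% with the lower value in the U13A pair. The members called for the difference were 9 of 12 in nspb, 8 of 10 in nspa and nspc-4, with none in nspd or nspe. Near copies count several times in these numbers. More mRNA and more ribosomes per mRNA give the same footprint count, and in whole animals fewer cells of a type and less RNA per cell cannot be told apart.

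**Figure D2:**
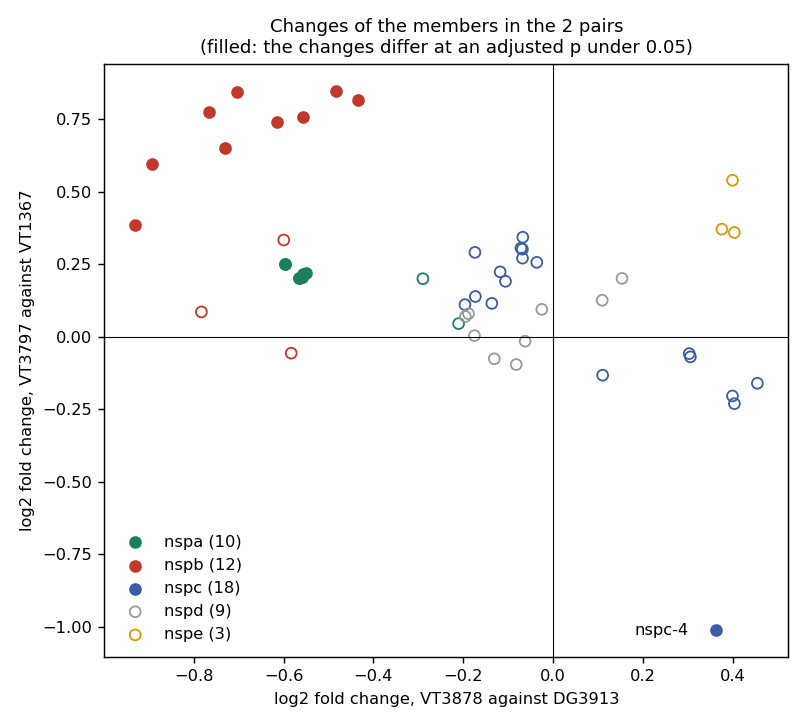
Log2 fold change of each member tested in both pairs, with VT3878 against DG3913 on the horizontal axis and VT3797 against VT1367 on the vertical axis. Each point is 1 gene, coloured by family with the number of genes in brackets, and a filled point marks a difference between the 2 changes at an adjusted p under 0.05. The nspa genes and 11 of the 12 nspb genes lie at the upper left, nspb-12 at the lower left, and nspc-4 at the lower right (0.36 and -1.01).

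nspb had lower summed levels than nspa, nspc and nspd, and it had values of opposite sign in the 2 pairs. Summed over its 12 rows it stood at 58.54, 60.81 and 68.99 CPM in DG3913 and at 30.77, 43.33 and 46.59 CPM in VT3878. In the U18A pair the sums were 51.83, 45.58 and 34.32 CPM in VT1367 and 75.23, 67.78 and 59.57 CPM in VT3797. The groups did not overlap in either pair, with the let-7 strain below its control in the first and above it in the second. All 12 members had negative log2 fold changes in VT3878 against DG3913, with a median of -0.66 against -0.004 over all genes, and 10 had all VT3878 libraries below all DG3913 libraries, as had 10.2% of all genes tested. In VT3797 against VT1367, 11 of 12 were positive with a median of 0.70, against -0.005 over all genes, and 8 rose.

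nspb-2, the most abundant of the family, was measured at 7.30, 6.40 and 10.6 CPM in DG3913 and at 3.87, 5.69 and 5.44 CPM in VT3878. Its 3 libraries of VT1367 held 5.63, 4.23 and 3.32 CPM and those of VT3797 held 9.22, 7.195 and 7.14 CPM. The mutant libraries thus lay below the controls in one pair and above them in the other. In the U13A pair its log2 fold change of -0.70 fell short of the threshold (edgeR adjusted p 0.0714, SE 0.21), in the U18A pair it rose by 0.84 (edgeR adjusted p 0.00802, SE 0.19), and the changes differed by -1.55 (edgeR adjusted p 0.00515, SE 0.31). Its neighbours nspb-1, nspb-3, nspb-4 and nspb-5 on chromosome IV rose in the U18A pair by 0.74 to 0.85. In the U13A pair these 5 genes had log2 fold changes of -0.43 to -0.70, and none of these passed the threshold.

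nspb-7, from the chromosome II group, passed the threshold in both pairs. Its levels were 4.91, 6.32 and 4.91 CPM in DG3913, 2.16, 2.74 and 3.88 CPM in VT3878, 4.43, 4.78 and 3.45 CPM in VT1367, and 7.54, 6.82 and 5.26 CPM in VT3797. It fell by 0.89 on the log2 scale in the U13A pair (edgeR adjusted p 0.0328, SE 0.22) and rose by 0.60 in the U18A pair (edgeR adjusted p 0.0435, SE 0.17). Both calls of nspb-7 lay near the threshold. The fall was lost with thinning to equal depth and with the replicate block (edgeR adjusted p 0.137 and 0.0642), and the rise with a minimum of 10 counts in every library and with all 12 libraries in one fit (edgeR adjusted p 0.0508 and 0.0640). Its neighbour nspb-8 was at 4.67, 5.26 and 5.28 CPM in DG3913 and at 2.01, 2.34 and 3.76 CPM in VT3878. In the U13A pair nspb-8 fell, the most negative change of any member there (log2 fold change -0.93, edgeR adjusted p 0.0310, SE 0.23). nspb-9 and nspb-10 rose in the U18A pair, by 0.78 and 0.65, the first not with thinning to equal depth (edgeR adjusted p 0.0868). All 9 members of the 2 groups differed between the pairs, by -1.25 to -1.55. Neighbours within a group may share reads, so these may not be 9 separate measurements. For nspb-6, nspb-11 and nspb-12, which lie apart, the differences of -0.94, -0.87 and -0.52 did not pass the threshold (edgeR adjusted p 0.102, 0.336 and 0.355).

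The difference was fitted over 12 libraries and each pair over 6, so 1 left-out library weighs less on the difference. The numbers of fits in which these nspb calls held are therefore not compared between them. Leaving out 1 library at a time, 7 of the 9 calls of the difference held in all 12 fits, nspb-3 in 11 and nspb-8 in 7. The 2 falls in the U13A pair were lost without DG3913 replicate B, without VT3878 replicate A and without VT3878 replicate B. In these fits edgeR called no member of any family, while without VT3878 replicate C it called 14. The fall of nspb-8 was also lost without DG3913 replicate C, and so held in 2 of the 6 fits. In the U18A pair the rises of nspb-2 and nspb-4 held in all 6 fits and those of the other 6 genes in 2 to 5, and the members called over all families numbered 4 without VT3797 replicate B, and 6 without VT1367 replicate C or VT3797 replicate A.

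nspa, the most abundant family per coding length, had the same signs as nspb with smaller values. The sum of its 10 rows was 3360, 3073 and 2406 CPM in DG3913 and 1831, 1900 and 2331 CPM in VT3878, and 2510, 2658 and 2212 CPM in VT1367 and 2760, 2999 and 2806 CPM in VT3797. Again the groups did not overlap, although replicate C of VT3878 came close to replicate C of DG3913. All 10 members had negative log2 fold changes in the U13A pair (median -0.56) and positive ones in the U18A pair (median 0.21).

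nspa-6 and nspa-7, with equal counts, were at 255, 281 and 197 CPM in DG3913 and at 161, 164 and 166 CPM in VT3878. In the U18A pair they were at 154, 188 and 156 CPM in VT1367 and at 183, 202 and 208 CPM in VT3797. The first pair of groups did not overlap and the second did. Both rows fell in the U13A pair (log2 fold change -0.60, edgeR adjusted p 0.0172, SE 0.13). In the U18A pair the log2 fold change of 0.25 fell short of the threshold (edgeR adjusted p 0.0921, SE 0.09), and the changes differed by -0.85 (edgeR adjusted p 0.00317, SE 0.16).

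nspa-1 and nspa-3 also fell in the U13A pair (log2 fold change -0.57, edgeR adjusted p 0.0328, SE 0.14), from 556.5, 513 and 399 CPM to 307, 323 and 374 CPM. nspa-2, nspa-4, nspa-5 and nspa-8 had log2 fold changes between -0.55 and -0.56 that did not pass (edgeR adjusted p 0.0719 to 0.0839), and in each of them VT3878 replicate C lay above DG3913 replicate C. DESeq2 called these 4 as well, and so did edgeR with no filter on counts or with all 12 libraries in one fit. No nspa member was called by edgeR or by DESeq2 in the U18A pair (edgeR adjusted p 0.0921 to 0.886), where 8 had an unadjusted p under 0.05. These 8 rows hold about 4 separate measurements, and the share of all genes under that unadjusted threshold is not given here. The changes of these 8 rows differed between the pairs, by -0.76 to -0.85, and those of nspa-9 and nspa-10 did not pass (-0.26 and -0.50, edgeR adjusted p 0.532 and 0.226). When 1 library at a time was left out, the differences of nspa-1, nspa-3, nspa-6 and nspa-7 held in all 12 fits. Those of nspa-2, nspa-4 and nspa-5 held in 5, and that of nspa-8 in 3. The 4 falls in the U13A pair were lost in 3 or 4 of the 6 fits, including those without DG3913 replicate B, VT3878 replicate A or VT3878 replicate B.

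**Figure D3:**
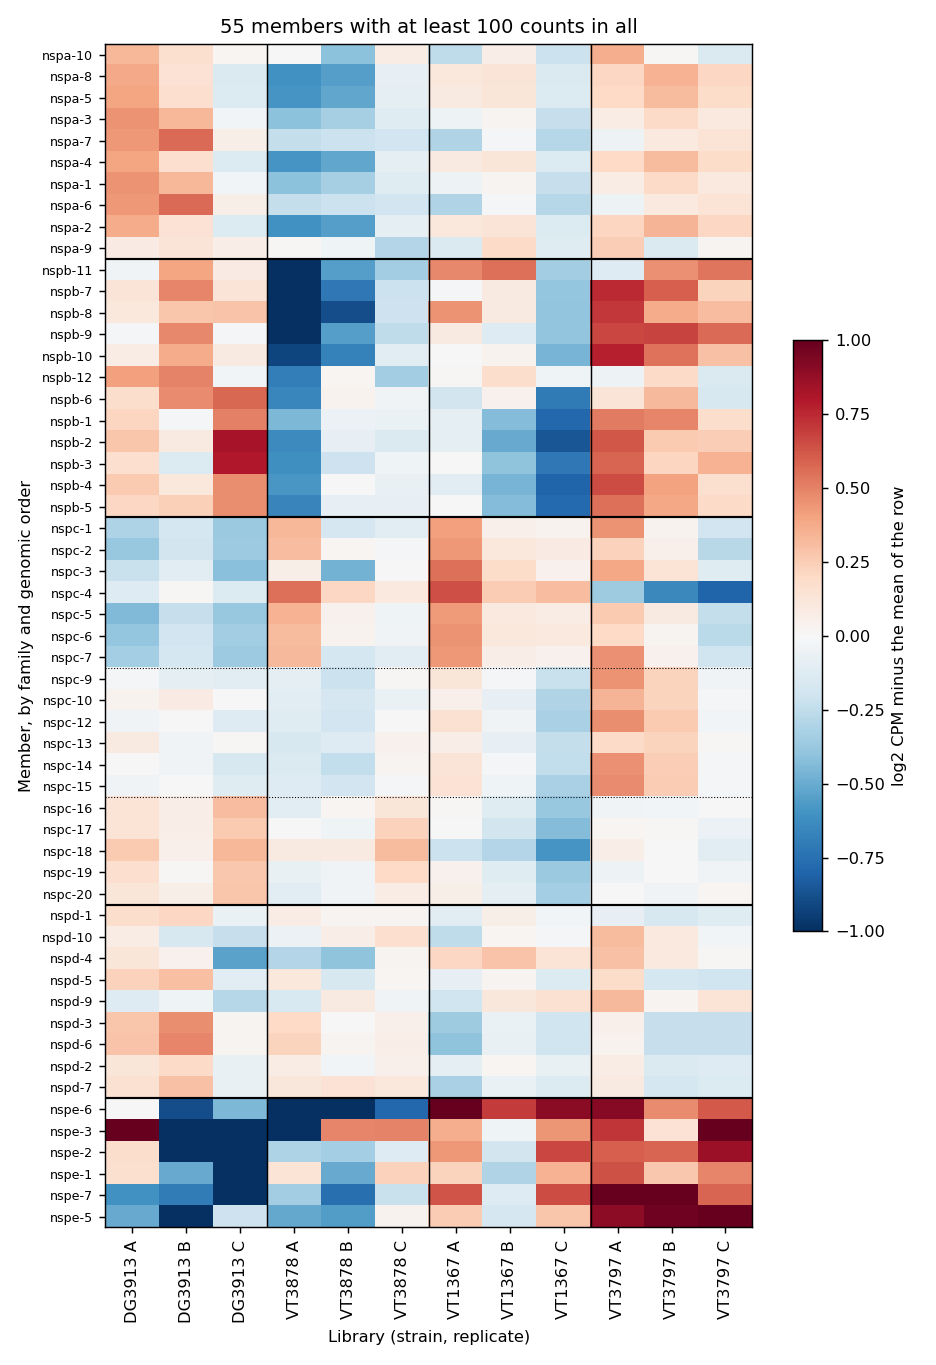
Log2 CPM of the 55 members with at least 100 counts, each minus its mean over the 12 libraries. Values past the ends of the colour scale take its end colours. Rows follow family and genomic order, solid lines part families and strains, and dotted lines part the 3 nspc clusters. Blue cells stand out for most nspa rows in VT3878 replicates A and B and for nspb in VT3878 replicate A. In VT3878 replicate B the nspb rows of chromosome II are blue, and nspb-1 to nspb-5 are nearer to their row means. The bluest cells of nspb-1 to nspb-5 are those of a control library, VT1367 replicate C. Red cells for nspe in VT1367 replicates A and C and in VT3797, and the blue cells of nspc-4 in VT3797, also stand out.

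nspc did not shift as a family. Its 18 rows summed to 1605, 1624 and 1599 CPM in DG3913, 1760, 1565 and 1719 CPM in VT3878, 1971, 1672 and 1504 CPM in VT1367, and 2037, 1804 and 1566 CPM in VT3797, and the groups overlapped in both pairs. The values divided by chromosome cluster instead. The 7 members of the first cluster (nspc-1 to nspc-7, chromosome X, 8534672 to 8542283) had log2 fold changes of 0.11 to 0.45 in the U13A pair. The 6 counted members of the second (12342289 to 12361159) ran from -0.17 to -0.04 and the 5 of the third (14523575 to 14530207) from -0.20 to -0.07. In the U18A pair the signs were the other way round, with -1.01 to -0.06 in the first cluster, 0.22 to 0.31 in the second and 0.11 to 0.34 in the third. Of these 36 values 3 passed the threshold, those of nspc-5 in the U13A pair and of nspc-4 and nspc-18 in the U18A pair. These are 5.56% and 11.1% of the 18 members, near the 5.64% and 10.9% of all genes called in the 2 pairs. The difference between clusters was not tested, and neighbours may share reads.

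**Figure D4:**
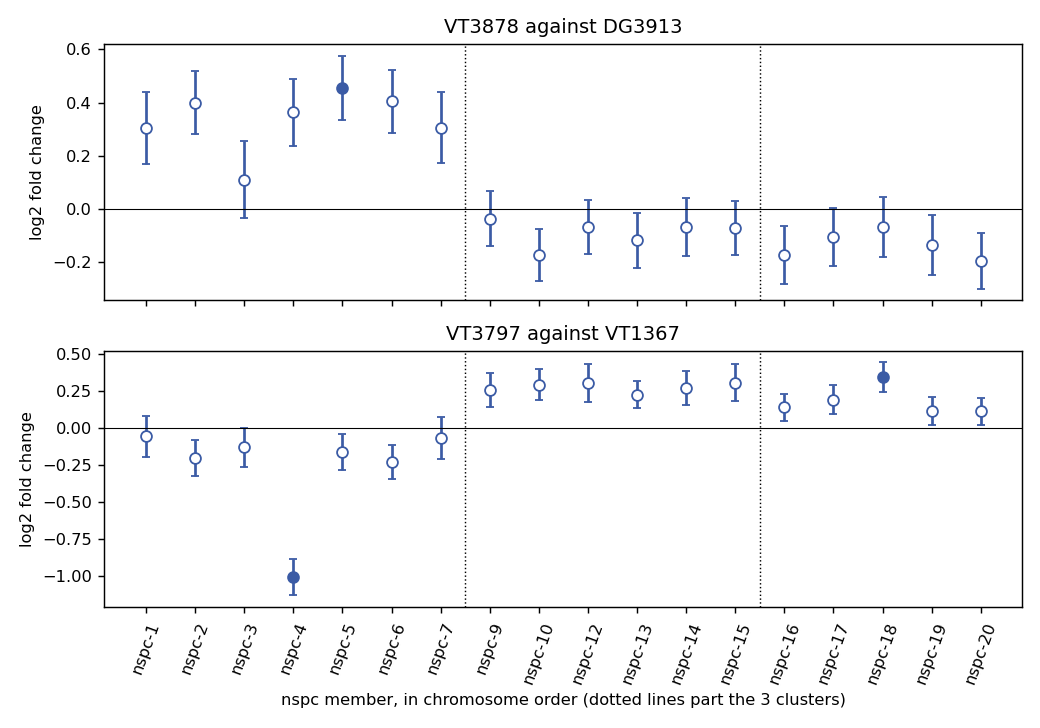
Log2 fold change ± SE of the 18 counted nspc genes in chromosome order, in VT3878 against DG3913 (top) and VT3797 against VT1367 (bottom). Filled points passed an adjusted p under 0.05, and dotted lines part the 3 clusters. The first cluster lies above 0 in the top panel and below 0 in the bottom panel, where nspc-4 stands at -1.01.

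nspc-4, the fourth gene of the first cluster (chromosome X, 8537956 to 8538362, minus strand), stood apart. It was measured at 50.8, 56.0 and 50.4 CPM in DG3913 and 81.3, 63.9 and 59.4 CPM in VT3878. In VT1367 it was at 86.7, 66.1 and 68.5 CPM and in VT3797 at 43.3, 35.4 and 31.9 CPM. The VT3797 libraries were the lowest of all 12. In VT3797 it fell against VT1367 (log2 fold change -1.01, edgeR adjusted p 1.23e-04, SE 0.12), a value in the U13A pair of 0.36 fell short of the threshold (edgeR adjusted p 0.127, SE 0.13), and the changes differed by 1.37 (edgeR adjusted p 4.35e-04, SE 0.20). The call in the U18A pair held in all 6 fits that left out a library (log2 fold change -1.13 to -0.88) and the call of the difference in all 12.

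Set against its own cluster, which needs no scaling between libraries, nspc-4 held 10.1% to 11.1% of the counts of nspc-1 to nspc-7 in each of the 9 libraries of the other strains. In VT3797 it held 5.86% (385 of 6572 counts), 5.81% (468 of 8053) and 6.31% (558 of 8848). The other 6 members of the cluster had log2 fold changes of -0.23 to -0.06 in that pair, and none of these passed the threshold. The control strains did not differ in this share by more than their replicates, with 10.3% to 10.6% in DG3913 and 10.1% to 10.7% in VT1367.

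**Figure D5:**
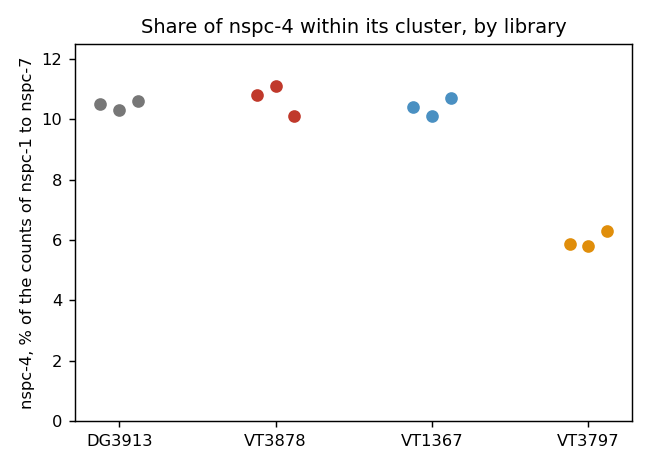
Counts of nspc-4 as a percentage of the counts of nspc-1 to nspc-7 in the same library, by strain. Each point is 1 library (replicates A to C from left to right). The 3 VT3797 libraries lie between 5.81% and 6.31% and the other 9 between 10.1% and 11.1%.

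The other nspc calls were smaller. nspc-5 was at 63.1, 73.3 and 66.0 CPM in DG3913 and at 109, 88.3 and 83.4 CPM in VT3878, without overlap, and rose by 0.45 on the log2 scale (edgeR adjusted p 0.0438, SE 0.12). That call held in 1 of the 6 leave-1-out fits. nspc-18 was at 46.6, 44.03 and 35.99 CPM in VT1367 and at 56.7, 54.2 and 49.98 CPM in VT3797, without overlap. It rose in the U18A pair by 0.34 (edgeR adjusted p 0.0407, SE 0.10), a call that held in 2 of 6. The most abundant members, nspc-9, nspc-12 and nspc-14, had values of -0.07 to -0.04 in the U13A pair and 0.26 to 0.30 in the U18A pair, and none passed (edgeR adjusted p 0.168 to 0.914).

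nspd, the family found in sperm, had no call in either pair or for the difference, with 9 of its 10 counted members tested. Of all genes tested, 5.64%, 10.9% and 5.58% were called there, so 0 of 9 does not set nspd apart. In edgeR without adjustment 0 of the 9 had a p under 0.05 in any of these 3 comparisons, and DESeq2 called 0 in each. The family summed to 1489, 1603 and 1227 CPM in DG3913, 1394, 1267 and 1341 CPM in VT3878, 1134, 1304 and 1204 CPM in VT1367, and 1387, 1163 and 1161 CPM in VT3797, and every member overlapped between the groups in both pairs. Most genes overlapped too. Of all genes tested, 12.6% lay above and 10.2% below the control without overlap in the U13A pair, and 12.0% and 15.7% in the U18A pair. The nspd log2 fold changes were small. They ran from -0.20 to 0.15 in the U13A pair and from -0.10 to 0.20 in the U18A pair. nspd-3, the most abundant, was at 310.3, 353 and 260.3 CPM in DG3913, 295, 256.5 and 265 CPM in VT3878, 199.9, 245 and 223 CPM in VT1367, and 266, 218 and 218.5 CPM in VT3797. Its groups overlapped in both pairs, with log2 fold changes of -0.20 (SE 0.13) and 0.07 (SE 0.09). Next in level were nspd-6, with -0.19 and 0.08, and nspd-2, with -0.06 and -0.01. The major sperm protein genes, which encode the cytoskeletal and signalling protein of nematode sperm, had 0 of 31 tested members called by edgeR in each pair. Their median log2 fold changes were -0.12 and -0.15. In each pair 1 of these 31 had a positive value, as had 6341 of 12874 and 6681 of 13614 genes tested. In edgeR 2 and 5 of the 31 had an unadjusted p under 0.05. The share of all genes under that unadjusted threshold is not given here. Of the 17 tested genes of the other sperm peptide families listed (ssp, ssq, sss, nspf, nspg and nsph), 1 rose in each pair.

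nspe had few counts. Its 7 rows summed to 28.37, 15.87 and 12.39 CPM in DG3913 and 25.12, 18.61 and 27.78 CPM in VT3878, which overlapped, and to 32.77, 22.45 and 35.96 CPM in VT1367 and 41.72, 35.97 and 40.55 CPM in VT3797. The VT3797 sums all lay above those of VT1367, the lowest of them barely. Of the 7 members, 3 could be tested in VT3878 against DG3913 and 6 in VT3797 against VT1367. No nspe member was called by edgeR or DESeq2 in the U13A pair or had an unadjusted p under 0.05 there, and the 3 values were 0.38 to 0.40 (SE 0.29 to 0.36). nspe-5 rose in the U18A pair, from 21, 34 and 33 counts in VT1367 to 14, 22 and 37 counts in the shallower VT3797 libraries, or from 1.01, 0.753 and 1.03 CPM to 1.57, 1.67 and 2.11 CPM. Its log2 fold change of 1.01 (edgeR adjusted p 0.0171, SE 0.25) was the largest rise of any member in that pair, and the call held in 3 of the 6 leave-1-out fits. With the libraries thinned to equal depth it was lost (log2 fold change 0.72, edgeR adjusted p 0.194). nspe-1, the most abundant, was at 18.8, 13.1 and 20.5 CPM in VT1367 and 25.1, 19.4 and 22.6 CPM in VT3797, and did not pass (log2 fold change 0.36, edgeR adjusted p 0.169, SE 0.15). nspe-4 had at most 10 counts in any library and was not tested.

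The 2 control strains were compared to see where the members already differed without a let-7 allele. They sit in separate tables, and strain and table cannot be told apart. In VT1367 against DG3913, 8 of 54 members were higher and 18 lower, where 25.0% of all genes were called, 13.4% higher and 11.6% lower. The lower ones were 6 nspb, 5 nspc, 4 nspa and 3 nspd members, and the higher ones 5 nspc and 3 nspe members. This comparison shares its libraries with the ones above.

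In nspb the 5 genes of the chromosome IV group and nspb-6 were lower in VT1367, with log2 fold changes of -0.68 to -0.93, and none of the chromosome II genes passed. In nspa, nspa-6 and nspa-7 were lower (log2 fold change -0.57, edgeR adjusted p 0.00149, SE 0.11), as were nspa-1 and nspa-3 (-0.35, edgeR adjusted p 0.0332, SE 0.12). In nspc the clusters parted again. The members of the first had values of 0.45 to 0.55, with nspc-2 to nspc-6 called, nspc-4 among them (0.48, edgeR adjusted p 0.0164, SE 0.14). Those of the second had -0.15 to 0.03, with none called, and those of the third -0.59 to -0.28, with all 5 called.

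The nspe members nspe-2, nspe-6 and nspe-7 were higher in VT1367, by 0.99 to 1.28. nspe-6 was at 0.599, 0.324 and 0.44 CPM in DG3913 and at 1.203, 0.974 and 1.118 CPM in VT1367 (log2 fold change 1.28, edgeR adjusted p 0.00776, SE 0.32). Its counts were 5, 4 and 6 in DG3913 and 25, 44 and 36 in VT1367, and it was not tested in the U13A pair. It passed the count filter here only through the VT1367 and VT3797 libraries, so its call is a description. nspe-7 stood at 1.56, 1.46 and 0.953 CPM in DG3913 and 3.66, 2.17 and 3.73 CPM in VT1367 (log2 fold change 1.26, edgeR adjusted p 0.00494, SE 0.30). In nspd, nspd-3 (-0.47, edgeR adjusted p 0.00669, SE 0.12), nspd-6 (-0.50, edgeR adjusted p 0.00521, SE 0.12) and nspd-7 (-0.31, edgeR adjusted p 0.0348, SE 0.10) were lower. The major sperm protein genes had a median of 0.27 there, with 2 of 31 higher and 0 lower. The count of members called fell to 13 without DG3913 replicate C and to 14 without VT1367 replicate C.

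Markers of stage and tissue also differed between these strains. Genes of the molting cycle, taken as a list of 10 from an earlier analysis of these data, summed to 246 to 317 CPM in DG3913, 351 to 540 in VT3878, 992 to 1450 in VT1367 and 532 to 544 in VT3797. In the U13A pair 2 of the 10 rose and 0 fell, and in the U18A pair 0 rose and 9 fell. This list may have been chosen after its changes in these data were seen, so its counts are a description. In VT1367 against DG3913, 9 were higher and 0 lower. Oocyte markers were higher in both let-7 strains, with 7 of 8 tested called in VT3878 and 8 of 8 in VT3797, and their summed level ran from 423 to 682 CPM in DG3913, 572 to 786 in VT3878, 684 to 820 in VT1367 and 1120 to 1270 in VT3797. The 13 sperm markers ranged from 1210 to 1820 CPM in sum over the strains, with 1 lower in each pair (spe-44). Of 4 hypodermis markers 1 rose in the U13A pair, and 1 rose and 2 fell in the U18A pair. Of 5 intestine markers 2 rose in the U18A pair, where the sum of all 5 was 13200 to 14700 CPM in VT1367 and 22500 to 27500 CPM in VT3797. The higher sum lay with vit-2 (4234 to 5003 CPM in VT1367, 8404 to 10000 in VT3797) and vit-6 (5846 to 6680 and 10820 to 13460). elt-2 was at 18.29 to 20.43 CPM in VT1367 and 20.47 to 22.04 in VT3797, and ges-1 and asp-1 overlapped between these strains. Of 3 pharynx markers 1 rose in the U18A pair. The 4 body wall muscle markers summed to between 6420 and 12100 CPM over the 12 libraries, the 5 neuron markers were detected in all of them, and no listed marker found in the tables was at 0. The part of these differences in the results for the nsp families was not tested.

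Total counts ranged from 8405704 to 44950649 per library, and every VT3878 library was deeper than every DG3913 library, while every VT3797 library was shallower than every VT1367 library.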

How the data were processed

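The authors deposited 2 tables of raw footprint counts by gene name, each with 1 let-7 strain and its control. The submitters' processing notes list cutadapt 1.9, Bowtie2 2.3.4.3 and the build WBcel235. Which tool and annotation served for counting, whether strand was used and what was done with reads of several matches is not given in the sources used here. All 12 columns were used.

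Rows of the whole table that passed the count filter were tested, and p-values were adjusted over all genes of a fit. The fits used edgeR 4.0.16 under R 4.3.3, with filterByExpr, TMM scaling and robust quasi-likelihood estimation, at a Benjamini-Hochberg adjusted p under 0.05. Each pair was fitted alone (6 libraries). The difference of the changes, given as U13A minus U18A, and the comparison of the controls used 4 group means over all 12. Standard errors were derived from the F statistic. The fits were checked on simulated counts with log2 changes of 1. They recovered 85.3% of these in the U13A pair, 89.4% in the U18A pair, 60.8% for the difference and 78.3% for the controls. False calls made up 6.15%, 4.81%, 3.97% and 3.12% of the calls. Smaller changes were not simulated, so a missing call does not show that a member was unchanged. Exact permutation of 3 against 3 libraries cannot reach 0.05, so no such p is given.

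Positions, exons and coding lengths came from Ensembl release 115 and RefSeq, both on WBcel235, and all 64 symbols matched. No protein or DNA sequences were used here. Near copies were defined by counts within 2% in every library, and clusters by neighbours under 100000 bases apart.

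Named members are those called in any comparison, the 3 most abundant of each family and the extremes of each pair. The members and lists were chosen with earlier results of these data known, the molting list among them. Alternatives were DESeq2 1.42.0, median-of-ratios and upper-quartile scaling, other count filters, a replicate block, no robust estimation, other sets of libraries, thinning to equal depth and leaving out each library.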

Additional observations from a re-analysis of the deposited data

Results flagged for a closer look

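The results below were picked out because the change in VT3878 against DG3913 differed from that in VT3797 against VT1367, tested with edgeR in a fit of all 12 libraries at an adjusted p under 0.05. Values are log2 differences, and a negative one means a lower value in the U13A pair. In nspb they were -1.25 for nspb-1, -1.55 for nspb-2, -1.36 for nspb-3, -1.33 for nspb-4, -1.31 for nspb-5, -1.49 for nspb-7, -1.32 for nspb-8, -1.54 for nspb-9 and -1.39 for nspb-10. In nspa they were -0.77 for nspa-1 and nspa-3, -0.85 for nspa-6 and nspa-7, -0.77 for nspa-2 and nspa-8, and -0.76 for nspa-4 and nspa-5. In nspc the value of nspc-4 was 1.37, the one positive difference among them. Allele of let-7, allele of lin-41, transgene and table all differ between the pairs and cannot be told apart. Near copies repeat the same measurement, so the 8 nspa values stand for about 4, and neighbours in nspb may share reads.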

How the results depend on the processing

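In the U13A pair 7 members were called, against 11 with DESeq2, 15 with no filter on counts, 12 with all 12 libraries in one fit and 1 with the replicate block. In the U18A pair 11 were called, against 22 with the replicate block. Deviations of same-letter libraries correlated at -0.356 to 0.0173 in the U13A pair, and those of different letters at -0.367 to 0.379. In the U18A pair the values were -0.00585 to 0.137 for the same letter and -0.138 to 0.0213 for different letters. Whether libraries of the same letter belong together is not given in the labels and was not tested. With the block the difference gave 18 calls (14 shared with the 18 above) and the controls 26 (24 shared). Leaving out 1 library at a time gave 0 to 14 calls in the U13A pair, 4 to 15 in the U18A pair, 13 to 19 for the difference and 13 to 28 for the controls. The other scalings, filters and thinning kept each count within 1.5 times, and none of the results recomputed changed sign while called. The log2 ratio of the nspc sum in VT3878 over DG3913 was 0.06, and the median of single genes gave -0.0512. Counting 1 row per group of near copies, an alternative added after seeing the data, moved no family ratio by more than the spread between replicates. Depth limits nspe, of which 3 members could be tested in the U13A pair. The cause of these shifts was not tested.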
